A study of Mus musculus with 6 samples.

Results

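The 9 genes described here, which mark B cells and plasma cells, were followed in colonic mucosa of mice that lack Tlr2, a surface receptor for bacterial lipoproteins. They were chosen as B cell surface genes and plasma cell genes, and were matched to probes by the accession that each array file gives. The B cell members are Ms4a1, Cd79a, Cd79b, Cxcr5 and Pou2af1, and the plasma cell members are Jchain, Tnfrsf17, Xbp1 and Sdc1. All 9 of these genes, of 17317 named genes on the array, had a probe. They had 10 probes of the 25114 with a gene symbol, because Jchain has 2, and 8 of the 9 passed the filter on dim probes and were among 14712 genes tested.

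The samples were Tlr2 knockout (Tlr2-/-) mucosa and wild-type (WT) mucosa, both of the C57BL/6 strain and both taken at 90 postnatal days by scraping with a microscope slide. The 4 two-colour expression arrays each held 1 knockout and 1 wild-type RNA sample. They are named by the number of the knockout sample as pairs 1, 2, 4 and 5, and the dyes were reversed between pairs 1 and 2 and pairs 4 and 5. No label says that each sample is a separate animal, so a p-value measures only the spread between these samples. The labels limit the knockout to no cell type, and they name no cell sorting.

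B cells recognise antigen through a surface antibody that signals through the paired chains CD79A and CD79B, and CXCR5 guides them into lymphoid follicles. When they become plasma cells they shut down much of this programme, expand the endoplasmic reticulum under XBP1 and secrete antibody. In the gut most of that antibody is dimeric IgA, held together by the joining chain, the product of Jchain, and carried across the epithelium by the receptor PIGR.

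The promoters of 6 of the 9 members matched a RefSeq promoter table (GRCm38.p6), and 3 are printed: Cd79a and Pou2af1, the B cell members that matched, and Jchain, the plasma cell member whose ratios varied most. Each sequence runs from 250 bases before to 50 after the start site, 5′ to 3′ along the gene, at chr7:24897247-24897546 (plus strand), chr9:51213440-51213739 (plus strand) and chr5:88527848-88528147 (minus strand). Capitals mark a match to any motif searched.

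Cd79a: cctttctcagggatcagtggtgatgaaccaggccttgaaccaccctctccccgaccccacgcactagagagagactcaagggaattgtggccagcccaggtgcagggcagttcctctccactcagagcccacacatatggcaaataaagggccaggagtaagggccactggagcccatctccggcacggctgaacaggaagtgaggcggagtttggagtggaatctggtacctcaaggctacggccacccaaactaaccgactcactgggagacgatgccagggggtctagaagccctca
Pou2af1: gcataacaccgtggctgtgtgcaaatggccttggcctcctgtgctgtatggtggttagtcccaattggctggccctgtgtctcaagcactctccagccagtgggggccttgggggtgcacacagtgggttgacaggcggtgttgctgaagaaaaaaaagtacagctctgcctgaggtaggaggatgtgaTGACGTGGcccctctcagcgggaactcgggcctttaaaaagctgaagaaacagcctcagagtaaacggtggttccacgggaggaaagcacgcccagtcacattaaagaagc
Jchain: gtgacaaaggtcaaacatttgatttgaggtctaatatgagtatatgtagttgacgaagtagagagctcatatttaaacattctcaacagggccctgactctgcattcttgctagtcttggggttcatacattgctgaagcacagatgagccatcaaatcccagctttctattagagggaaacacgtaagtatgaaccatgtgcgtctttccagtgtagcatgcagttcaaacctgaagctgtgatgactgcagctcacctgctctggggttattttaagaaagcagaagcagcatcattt

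Both strands were searched for 5 motifs. The capitals in the Pou2af1 promoter are TGACGTGG, the core of the unfolded protein response element that XBP1 is known to bind, which starts 61 bases before the start site and was found in 0.676% of 32851 promoters. It was the single match among the 6 member promoters. The octamer ATGCAAAT, the element at which the Pou2af1 product acts as a coactivator, was in 0 of the 6 and in 1.74% of all promoters. The palindromic EBF1 motif (0.904% of all), the PU.1 motif GAGGAAGT (3.2%) and the endoplasmic reticulum stress element (0.119%) were likewise in 0 of the 6. Only matches to the fixed letters of each motif were counted. A count of 0 therefore does not show that these promoters, that of Cd79a included, lack a variant site for EBF1 or another factor.

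Tlr2 itself checked the labels. Its level after normalisation, as log2 intensity, lay between 6.54 and 7.70 in the knockout samples and between 11.47 and 12.37 in the wild-type samples, and its log2 ratio was between -5.50 and -4.20 on the 4 arrays. In the knockout channel 67.7% to 71.9% of 43379 spots were well above background, and in the wild-type channel 63.3% to 76.5%. Over 14701 genes the log2 ratios of pair 1 correlated at -0.21, -0.42 and -0.10 with those of pairs 2, 4 and 5, while the other 3 correlations were 0.42 to 0.57. So pair 1 went against the other pairs over many genes although its Tlr2 ratio did not. Epithelial markers were bright, and 6 of the 9 measured had a saturated channel on each of the 4 arrays, which leaves their ratios without a reliable size. No probe could be named as an immunoglobulin heavy or light chain gene here.

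The comparison asked whether the mucosa without Tlr2 differed in B cell or plasma cell transcripts. No member differed beyond the spread between arrays by limma with a dye term, where the adjusted p was 0.707 to 0.997 over the 8 tested members. That test called 0 of 14712 genes (0%), against 1192 genes (8.1%) at an unadjusted p under 0.05 and 3 genes (0.0204%) in limma without the dye term. Tlr2 itself was not called by it (adjusted p = 0.318), so a member that was not called may still differ. The submitters' rule asks for a change over 1.6-fold on 2 or more arrays that no other array contradicts. By it, 0 of the 8 members passed, against 0.761% of all genes upward and 0.714% downward. None of the 8 kept 1 direction on all 4 arrays, where 15.6% of all genes did, and the knockout and wild-type levels overlapped for each of them, against 4.64% of genes with no overlap. The authors' deposited table of hits lists 0 of the 9 members. What the members did show was a different order of samples for B cell genes, for Jchain and for Xbp1 with Sdc1.

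**Figure D1:**
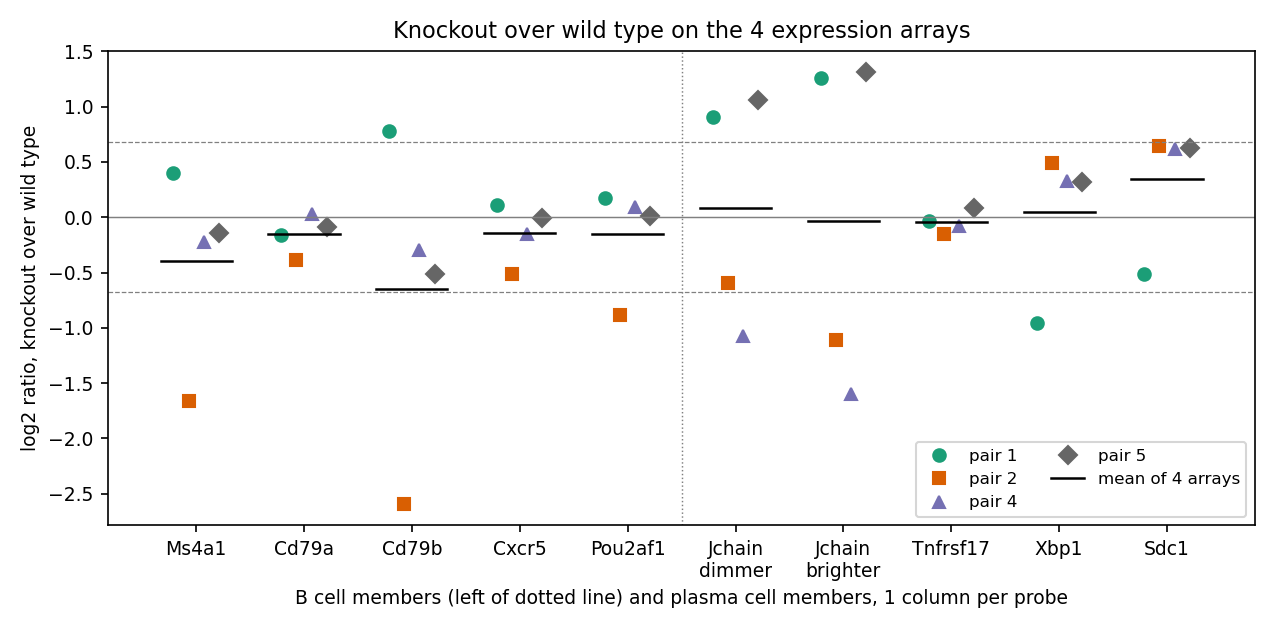
Log2 ratio of knockout over wild type for each member probe, with 1 symbol per array and a bar at the mean. Dashed lines mark 1.6-fold. Pair 2 is lowest for all 5 B cell members, Jchain is high for pairs 1 and 5 and low for pairs 2 and 4, and pair 1 is lowest for Xbp1 and Sdc1.

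Among the B cell members, Cd79b, the beta signalling chain of the B cell receptor, spread most. Its level was 7.71, 6.91, 7.38 and 7.76 in the knockout samples of pairs 1, 2, 4 and 5, against 6.92, 9.50, 7.69 and 8.27 in their wild-type partners (log2 intensity). The wild-type sample of pair 2 stood 1.23 above the next of the 8 samples, and the knockout sample of the same pair was the lowest of all. The ratio was -2.59 for pair 2, a 6.03-fold difference and the 6th lowest of 14709 genes on that array, and pairs 1, 4 and 5 were at 0.78, -0.30 and -0.51. On average it was -0.65 ± 1.41 (log2, SD, n = 4), with a 95% limma interval of -2.31 to 1.00 (adjusted p = 0.802).

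Ms4a1, which encodes the B cell surface protein CD20, was also highest in the wild-type sample of pair 2. Its level was 7.15, 6.79, 6.90 and 7.31 in the knockout samples, against 6.76, 8.45, 7.12 and 7.46 in the wild-type samples. This sample was highest by 0.99, and the other 7 samples lay close together. Its ratios were 0.40, -1.66, -0.22 and -0.14 in pair order, and the value of pair 2 ranked 38th from the lowest. They averaged -0.40 ± 0.88 (SD, n = 4; limma interval -1.43 to 0.62, adjusted p = 0.802).

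Pou2af1, the coactivator OCA-B, which B cells need to form germinal centres, was at 7.24, 6.88, 7.52 and 7.55 in the knockout samples, against 7.08, 7.76, 7.43 and 7.54 in the wild-type samples. Pair 2 alone was apart, at a ratio of -0.88 (1.84-fold lower), and the ratios of pairs 1, 4 and 5 were 0.17, 0.09 and 0.01. With pair 2 they averaged -0.15 ± 0.489 (SD, n = 4; limma interval -0.71 to 0.40, adjusted p = 0.877). Cxcr5, the receptor for the follicle chemokine CXCL13, was at 7.04, 7.15, 7.07 and 7.38 in the knockout samples, against 6.93, 7.66, 7.22 and 7.39 in the wild-type samples. Its ratios were 0.11, -0.51, -0.15 and -0.01, with a mean of -0.14 ± 0.268 (SD, n = 4; interval -0.52 to 0.24, adjusted p = 0.822).

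Cd79a, the alpha chain of the receptor, gave a dim signal, well above background in 3 of 4 knockout and 3 of 4 wild-type samples. It was at 6.43, 6.55, 6.57 and 6.58 in the knockout samples, against 6.58, 6.94, 6.53 and 6.67 in the wild-type samples. Its ratios were -0.16, -0.39, 0.03 and -0.09, a mean of -0.15 ± 0.179 (SD, n = 4; interval -0.41 to 0.11, adjusted p = 0.707). With Agilent's processed signals, which carry no offset, its ratios were -0.74, -1.62, 0.19 and -1.21 for pairs 1, 2, 4 and 5. Pair 2 was lowest there too, but pair 5 was also low.

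For all 5 B cell members the wild-type sample of pair 2 was the highest of the 8 samples, as it was for 15.9% of all tested genes. Of the 5, 3 were over 1.6-fold lower on that array, namely Ms4a1, Cd79b and Pou2af1, against 5.3% of genes. Without pair 2 the limma estimates of Cd79b, Ms4a1, Pou2af1 and Cxcr5 turned to 0.19, 0.11, 0.11 and 0.02. Without pair 1 those of Cd79b and Ms4a1 were -1.5 and -0.92 (limma adjusted p = 0.116 for both). Each of these fits leaves 1 array alone in its dye order, pair 1 or pair 2, and the dye term weights it as much as the others together. Unweighted, the mean ratio of the 5 B cell members was 0 without pair 2 and -0.49 without pair 1. In bulk tissue, fewer cells of a type and less RNA per cell cannot be told apart.

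**Figure D2:**
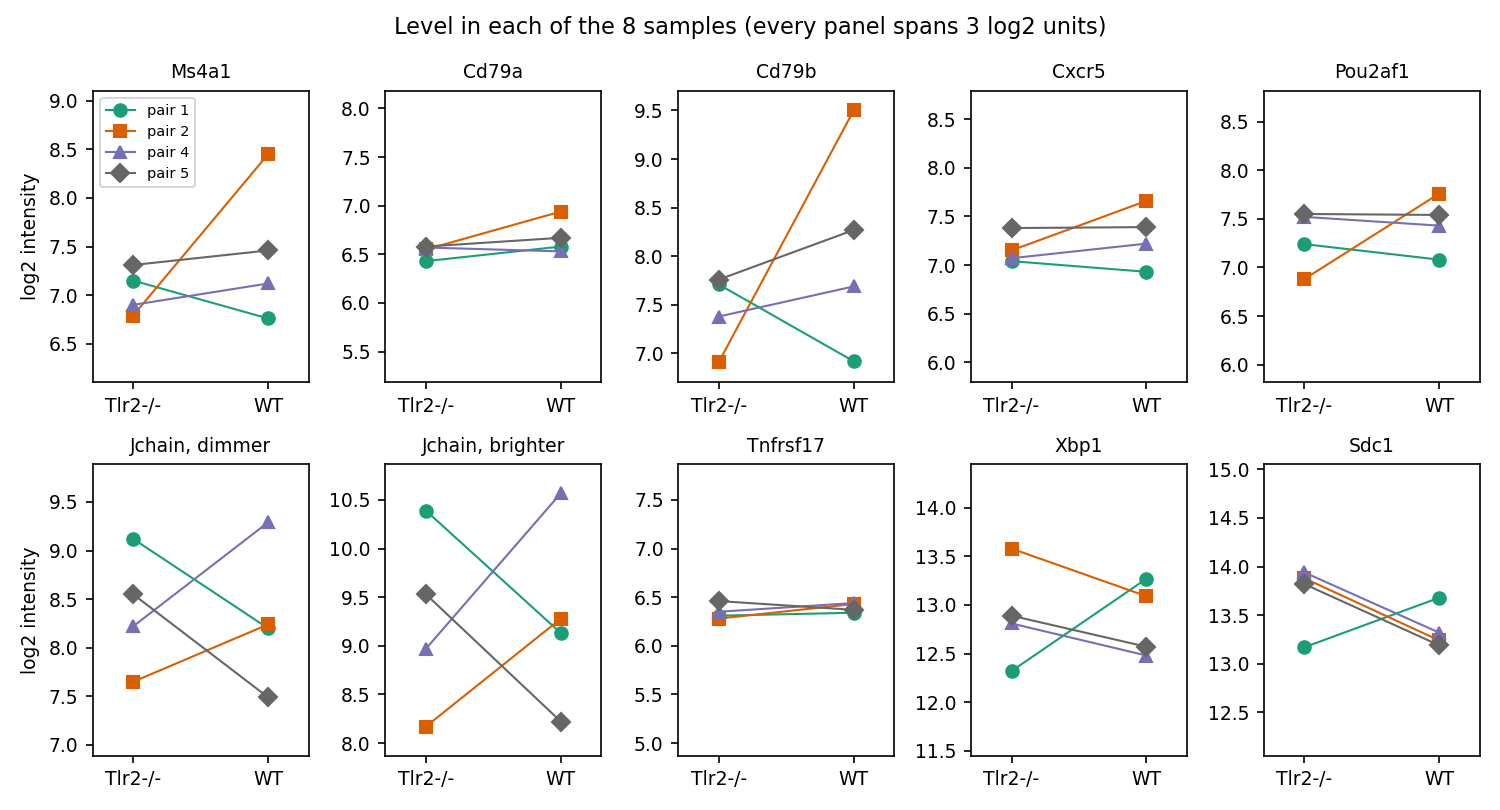
Normalised log2 intensity of each member probe in the 8 samples, Tlr2-/- on the left and WT on the right, with a line joining the samples of 1 array; every panel spans 3 log2 units. The wild-type sample of pair 2 tops the B cell panels, and the Jchain lines cross in both probes.

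Among the plasma cell members, Jchain had the widest spread, and its ratios split the pairs evenly. Its brighter probe was at 10.39, 8.17, 8.97 and 9.53 in the knockout samples of pairs 1, 2, 4 and 5, against 9.13, 9.28, 10.57 and 8.22 in the wild-type samples (log2 intensity). The highest level belonged to the wild-type sample of pair 4 and the lowest to the knockout sample of pair 2, and the ranges of both genotypes nearly coincided. Its ratios were 1.26, -1.11, -1.60 and 1.31, so the knockout sample was 2.39-fold and 2.48-fold higher for pairs 1 and 5 and 2.16-fold and 3.03-fold lower for pairs 2 and 4. They averaged -0.03 ± 1.54 (SD, n = 4), and the 95% limma interval of -1.86 to 1.79 leaves room for differences over 3-fold in either direction (adjusted p = 0.997).

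The dimmer Jchain probe, for the same transcript, gave 0.91, -0.59, -1.07 and 1.06 for pairs 1, 2, 4 and 5 and a mean of 0.08 ± 1.07. Both probes thus placed the pairs in the same direction, although with median centring in place of loess the brighter probe was only at 0.35 for pair 1. Of 14712 genes, 4 (0.0272%) were over 1.6-fold higher for pairs 1 and 5 and over 1.6-fold lower for pairs 2 and 4. They were Jchain, Ankrd37, Plet1 and Slc15a2, picked out after their values were seen. Slc15a2, a peptide transporter, was at 1.96, -1.24, -2.85 and 1.14, and Plet1, a surface protein of epithelial cells, at 1.03, -0.71, -1.98 and 0.94. Ankrd37 was at 1.73, -1.10, -0.71 and 0.73.

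Xbp1, the transcription factor that expands the secretory apparatus of plasma cells, is also active in gut epithelium. It was at 12.32, 13.58, 12.81 and 12.89 in the knockout samples, against 13.27, 13.09, 12.48 and 12.57 in the wild-type samples. Its ratios were -0.96, 0.49, 0.33 and 0.32 for pairs 1, 2, 4 and 5, with a mean of 0.05 ± 0.674 (SD, n = 4; interval -0.69 to 0.79, adjusted p = 0.977). Only pair 1 was below 0, and the level was lowest of all in its knockout sample.

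Sdc1, or syndecan-1, the plasma cell surface marker CD138 and a heparan sulphate proteoglycan of epithelial cells, went the same way. It was at 13.17, 13.88, 13.94 and 13.82 in the knockout samples, against 13.68, 13.24, 13.32 and 13.19 in the wild-type samples. The ratios were 0.64, 0.62 and 0.63 for pairs 2, 4 and 5, while pair 1 was at -0.51. The mean was 0.35 ± 0.572 (SD, n = 4, limma interval -0.26 to 0.95, adjusted p = 0.707). Limma gave 0.64 without pair 1 and 0.06 without pair 2. In the latter fit pair 1, alone in its dye order, weighs as much as pairs 4 and 5 together. The order lower for pair 1 and higher for pairs 2, 4 and 5, shared by Xbp1 and Sdc1, held for 16.2% of all genes. Hoxd13, a Hox gene of the distal gut, was at -4.76 for pair 1 and at 0.43, 2.15 and 0.58 for pairs 2, 4 and 5, and Hoxd4 at 3.09, -1.81, -1.82 and 0.27; their part in these ratios was not tested.

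Tnfrsf17, the survival receptor BCMA of long-lived plasma cells, was not measured well enough to compare. Its probe was well above background in 1 of 4 knockout samples and in 0 of 4 wild-type samples, its levels lay between 6.28 and 6.46 in all 8 samples, and no fold is given.

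Set against each other, the B cell and the plasma cell members did not differ by more than the spread between arrays. Averaged per array, the 5 B cell members had log2 ratios of 0.26, -1.21, -0.11 and -0.15 (pairs 1, 2, 4 and 5), and the 3 measured plasma cell members had -0.07, 0.01, -0.21 and 0.76. The difference was 0.33, -1.21, 0.10 and -0.90, with a mean of -0.42 ± 0.754 (SD, n = 4), and it was -0.44 over pairs 1 and 2 and -0.40 over pairs 4 and 5, which carry opposite dyes. Without pair 2 it was -0.16, and for pair 4 it turned to -0.12 with Agilent's processed signals and -0.51 with median centring. The mean of the plasma cell members hid a division among them, because Jchain minus the mean of Xbp1 and Sdc1 was 1.99, -1.68, -2.08 and 0.83.

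**Figure D3:**
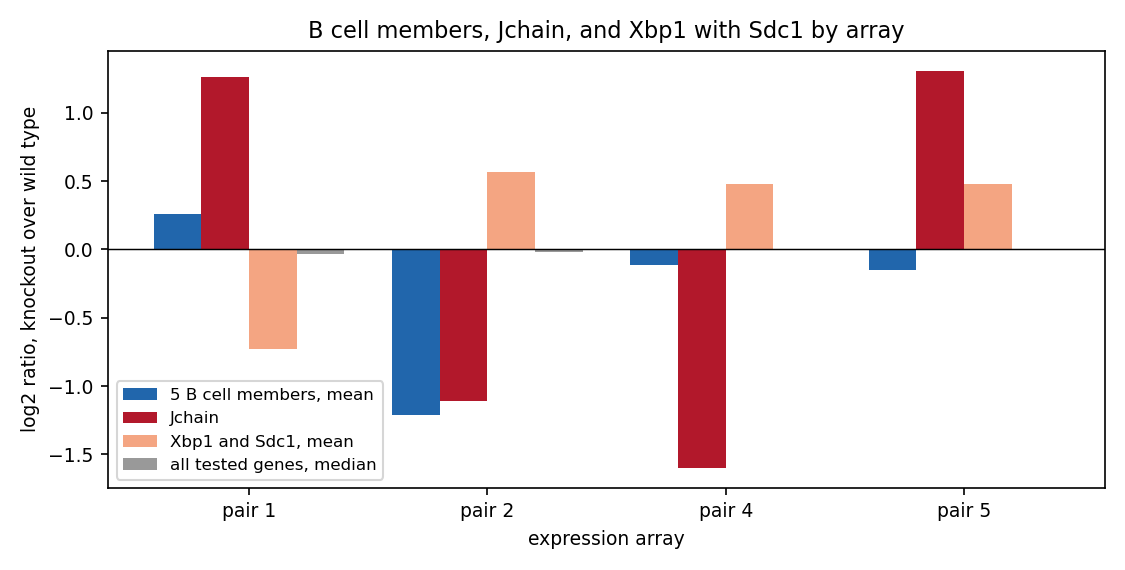
Log2 ratio of knockout over wild type by array, as bars from 0, for the mean of the 5 B cell members, for Jchain, for the mean of Xbp1 and Sdc1, and for the median of all tested genes. B cell members and Jchain are both low for pair 2 (-1.21 and -1.11), but for pair 4 Jchain is at -1.60 while the B cell members are at -0.11.

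B cell members and Jchain lay apart on 3 of the 4 arrays. For pair 1 the B cell mean was 0.26 beside 1.26 for Jchain. For pair 4 the B cell mean was -0.11 beside -1.60 for Jchain, and for pair 5 it was -0.15 beside 1.31. Only for pair 2 were both over 1.6-fold lower in the knockout sample.

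Many genes of a wider B cell list were also low for pair 2. They were read on the same array and in the same samples as the members, so they are no separate evidence. Of 25 measured companion genes, 0 passed limma or the submitters' rule in either direction, and 21 had a negative ratio for pair 2, where 52.4% of all genes did. Their median was 0.06, -0.33, -0.06 and -0.05 for pairs 1, 2, 4 and 5, beside medians of all genes between -0.03 and 0. The wild-type sample of pair 2 was the highest of 8 for 13 of the 25, against 15.9% of all genes. Fcmr, an IgM receptor of B cells, was at 6.91, 6.52, 6.94 and 7.18 in the knockout samples, against 6.60, 8.72, 7.06 and 7.70 in the wild-type samples. Its ratios of 0.31, -2.20, -0.12 and -0.52 were close in order and size to those of Cd79b.

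The other 5 companions over 1.6-fold lower for pair 2 were picked out after their values were seen: Ltb, a lymphotoxin chain, at -0.96, Cd83 at -0.93, the BAFF receptor Tnfrsf13c at -0.89, Ly86 at -0.86 and the inhibitory receptor Cd22 at -0.68. Ltb and Cd83 were at 1.33 and 1.29 for pair 1. Fcer2a, the low-affinity IgE receptor CD23, was at -0.12, -0.66, 0.03 and -0.09. Cd38, an ectoenzyme of many cell types, and Blnk, an adaptor of B cell receptor signalling, were at -0.13 and -0.12 for pair 2 and at 0.57 and 0.51 for pair 5. Cr2, a complement receptor of follicular B cells and dendritic cells, was at -0.06 for pair 2, and Pax5, which maintains B cell identity, at 0.16. Neither probe repeated the position of pair 2. Both were dim, with levels of 6.59 to 6.86 for Cr2 and 6.40 to 6.58 for Pax5 over all samples. They may not show a shift. Brighter companions, well above background in all samples, also lacked it: Ralgps2 was at 0.35, Ikzf3 at 0.33, Spib at -0.10 and Plcg2 at -0.08 for pair 2. Of the genes lower for pair 2, Fcer2a and Tnfrsf13c were dim too. They were well above background in 2 and 3 of 4 samples of each genotype.

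**Figure D4:**
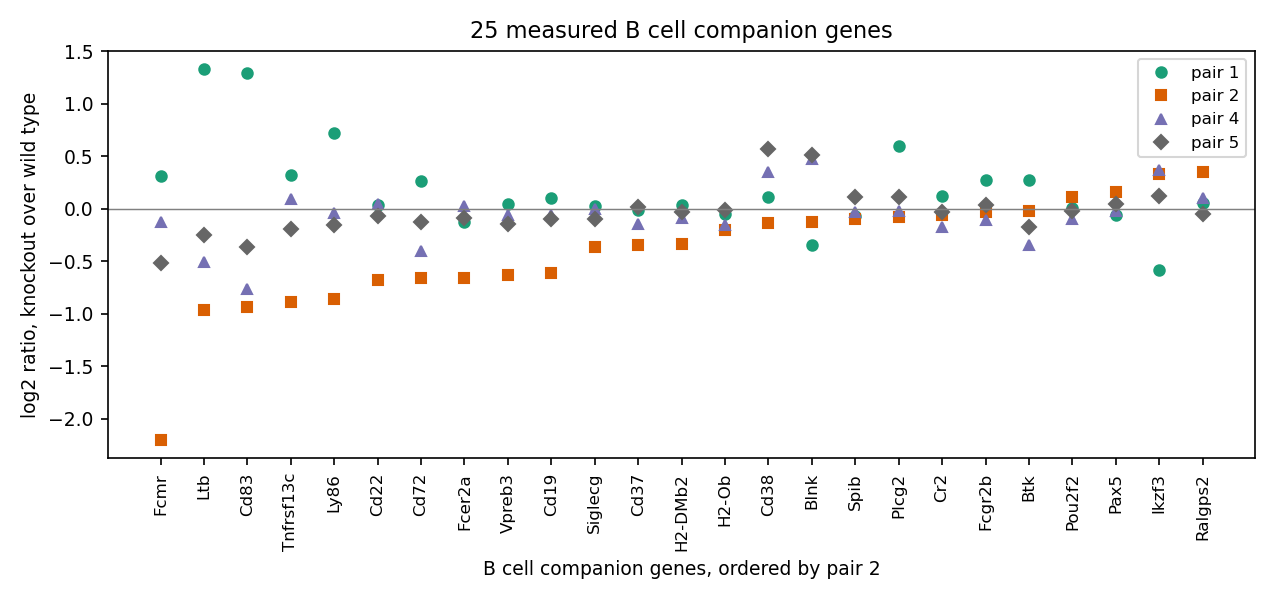
Log2 ratio of knockout over wild type for the 25 measured B cell companion genes, ordered by pair 2, with 1 symbol per array. Pair 2 lies below 0 for 21 of the 25 and is lowest for Fcmr at -2.20.

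Genes of the follicle and of the IgA niche were also mostly lower for pair 2. Of 11 measured, 10 were negative for that pair, where 52.4% of all genes were. Their median was -0.03, -0.38, 0.06 and -0.01 for pairs 1, 2, 4 and 5, and 0 passed limma or the submitters' rule in either direction. Cxcl13, the chemokine that CXCR5 binds, was at -0.13, -1.12, 0.42 and -0.44 for pairs 1, 2, 4 and 5, and the chemokine receptor Ccr6 at 0.06, -1.11, -0.15 and -0.05. Pigr, the transporter of dimeric IgA, was at -0.83 for pair 2, a value singled out after it was seen. Ccl20, the ligand of CCR6, was at 0.30, -0.60, -0.79 and -0.89, and Ccl28, an epithelial chemokine that attracts IgA plasma cells, at -0.24, -0.38, 0.83 and 0.55.

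Germinal centre genes had no low median for pair 2. It was 0.03 over 9 measured genes. By limma 0 of the 9 passed. By the submitters' rule 1 was higher and 0 lower, against 0.761% and 0.714% of all genes. The higher one was Fas, a death receptor with many sources, at 1.13, 0.28, 0.37 and 0.75. Neil1 was negative throughout, at -0.25, -0.15, -0.31 and -0.32 (limma unadjusted p = 0.038, adjusted p = 0.594). Rgs13 was at 1.47, -0.14, -0.15 and 0.01. Bcl6, the repressor that defines germinal centre B cells and is also found in other cells, was at 0.12, -0.10, 1.05 and 0.93 (limma unadjusted p = 0.00572, adjusted p = 0.594).

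Plasma cell companions had a median of 0.11, -0.11, -0.22 and -0.06 for pairs 1, 2, 4 and 5, and endoplasmic reticulum stress genes one of -0.02, -0.24, 0.01 and -0.14. For pair 2, 12 of 17 plasma cell companions and 11 of 17 stress genes were negative, against 52.4% of all genes. The wild-type sample of that pair was the highest of 8 for 6 and 4 of them, against 15.9% of all genes. Over 1.6-fold lower for pair 2 were 4 plasma cell companions and 1 stress gene, against 5.3% of all genes. Low ratios for that pair were thus not limited to B cell genes. The 4 companions were Fkbp11 at -0.97, Creld2 at -0.91, the integrin chain Itgb7 at -0.79 and Lman1, a cargo receptor of the secretory pathway, at -0.72. Of 17 measured plasma cell companions and 17 measured stress genes, 0 passed limma or the submitters' rule in either direction. Creld2, a chaperone-like protein of the endoplasmic reticulum, was lower on all 4 arrays at -0.63, -0.91, -0.57 and -0.55, with a mean of -0.66 ± 0.168 (SD, n = 4; limma unadjusted p = 0.00219, adjusted p = 0.594). Sdf2l1, at -0.61, -0.30, -0.48 and -0.10, and Sec61b, a subunit of the translocation channel, at -0.16, -0.77, -0.50 and -0.27, were also negative throughout. Dnajb9, a chaperone whose gene XBP1 is known to activate, was positive throughout at 0.28, 0.88, 0.57 and 0.65 (adjusted p = 0.594). Hspa5, the chaperone BiP, was at -0.90, -0.17, -0.17 and -0.59. Mzb1, which serves IgM and J chain assembly in plasma cells, was at 0.24, -0.42, -0.25 and -0.01. Of the other plasma cell companions, Prdx4 was at 0.33, -0.46, -0.53 and -0.64, and Ell2 at -0.82, 0.91, 1.43 and 0.97.

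Markers of other cells moved with some of these ratios, and their part in them was not tested. All 6 general leukocyte markers were negative for pair 2, with a median of -0.52, and their medians for pairs 1, 4 and 5 were 0.81, -0.44 and -0.09. Cd52, a lymphocyte surface antigen among them, was at 1.31, -1.67, -1.10 and -0.64. Cd53, Laptm5 and Arhgdib moved less for pair 2, at -0.31, -0.20 and -0.89. Of 10 measured T cell genes 9 were negative for pair 2, but the median was only -0.07. The wild-type sample of pair 2 was highest for 1 of the 10, against 15.9% of all genes. Cd3d, a chain of the T cell receptor complex, was at 1.18, -0.97, -1.51 and -0.58 and Cd8a at 0.56, -0.67, -1.05 and -0.21, so both were lowest for pair 4, as Jchain was. They were the only 2 of the 10 T cell genes over 1.6-fold lower for pair 4. The median of the 10 for that pair was -0.12, so these 2 do not speak for the list. Trat1 and Cd3g, the T cell genes of smallest p, were at 0.38 and -0.57 for pair 4. For pair 2 they were at -0.05 and -0.36. The median over 6 smooth muscle genes was -1.03, -0.12, -0.39 and 0.32, over 6 myeloid genes 0.16, -0.36, -0.09 and -0.02, and over 7 adipocyte genes -0.25, 0, 0.88 and 2.66. Over 9 epithelial genes it was 0.58, 0.47, -0.62 and -0.61. By limma and by the submitters' rule 0 genes of these 5 lists and of the epithelial list passed.

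**Figure D5:**
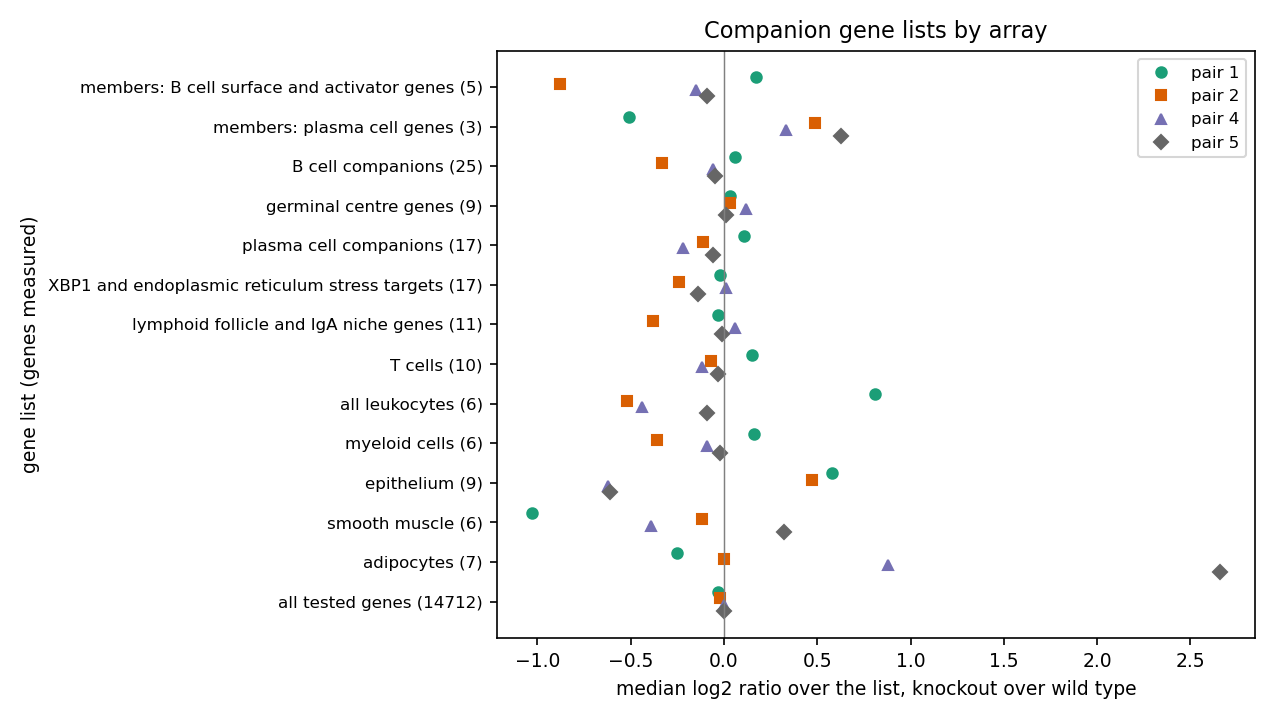
Median log2 ratio of knockout over wild type for each gene list, with the number of genes measured in brackets and 1 symbol per array. Pair 2 is lowest for the B cell members (-0.88), B cell companions (-0.33), follicle genes (-0.38), leukocyte genes (-0.52), myeloid genes (-0.36) and endoplasmic reticulum stress genes (-0.24).

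Of the genes outside the members, those whose 4 ratios lay nearest to the mean profile of the B cell members by Euclidean distance were H2-Oa (distance 0.175), Fzd9 (0.2), Ccr6 (0.247), Zfp784 (0.3) and Spef1 (0.315), among 14693 genes and over 4 arrays. H2-Oa, a chain of the class II modulator H2-O of B cells, was at 0.14, -1.11, -0.08 and -0.08. Nearest to the mean profile of the plasma cell members were Spsb4 (0.0919), Neurl1a (0.216), Map1lc3a (0.222), Nid1 (0.23) and Mpp5 (0.25). Since that mean averages Jchain with genes that ran the opposite way on 3 arrays, no single plasma cell member had it.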

How the data were processed

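Spot intensity per channel comes from Agilent Feature Extraction output that the authors deposited. Its version, per the file headers, is 10.5.1.1, whereas the submitters' processing notes name 8.5.1.1. The ratio in the authors' deposited lists of hits is linear, knockout over wild type; how it was normalised the sources used here do not give. The 2 methylation arrays were not used here.

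Median spot signals were background corrected with normexp (offset 50) and normalised by loess in limma 3.58.1 (R 4.3.3), with control spots at weight 0 and outlier spots left out. Spots of 1 probe were averaged. Levels per sample were taken after Aquantile scaling between arrays, and a level is compared only with the same probe's level. Of 41174 probes, 16060 had no symbol in the RefSeq gene table (GRCm38.p6), and 17 were named from the authors' deposited tables. A probe was kept if 1 genotype was well above background on 2 or more arrays, and the brightest stood for its gene.

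Log2 ratios were fitted with lmFit and eBayes with a dye term, and p-values adjusted by Benjamini-Hochberg over 14712 genes at 0.05. On simulated data the fit recovered 77% of 100 genes changed by 1 log2 unit and 100% of 100 changed by 2, with 12 false calls. On these arrays it called 0 genes, and so missed Tlr2. The simulation therefore does not show what the fit can detect here. All members and the 5 nearest profiles were named, as were immunoglobulin probes, of which 0 could be. Up to 4 genes by smallest p were named of each companion list except the myeloid, epithelial, smooth muscle and adipocyte lists. Those lists are given as medians and counts only. Other genes were picked after their values were seen. The members and lists were chosen with earlier results of these data known. With only 4 arrays, precision is limited throughout.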

Additional observations from a re-analysis of the deposited data

Results flagged for a closer look

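In all, 5 sets of 4 samples held 1 sample far from the other 3 by Dixon's criterion, among 30 sets examined over the 10 member probes. Chance gives this for about 1 in 20 sets, and the sets share samples. The log2 ratio of Pou2af1 for pair 2, -0.88, was far below those of pairs 1, 4 and 5. The log2 ratios of Xbp1 and Sdc1 for pair 1, -0.96 and -0.51, were far below those of pairs 2, 4 and 5. The Sdc1 level in the knockout sample of pair 1, 13.17, was likewise apart from the other knockout samples, as was the dim Cd79a level of 6.43 in the same sample. The ratios of Cd79b and Ms4a1 for pair 2 were larger but did not meet the criterion, since pairs 1, 4 and 5 were themselves spread.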

How the results depend on the processing

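No member passed limma under any alternative run, with adjusted p from 0.116 upward over 96 values, of which 12 turned in direction. Leaving out each pair in turn moved the limma estimate between -1.5 and 0.19 for Cd79b, -0.92 and 0.11 for Ms4a1, -0.42 and 0.11 for Pou2af1, -0.29 and 0.02 for Cxcr5, -0.76 and 0.69 for Jchain, -0.31 and 0.41 for Xbp1, 0.06 and 0.64 for Sdc1 and -0.21 and -0.09 for Cd79a. Jchain turned to 0.07 with Agilent processed signals, 0.05 without background correction, 0.02 with the mean of its probes and 0.08 for its dimmer probe, and Xbp1 to -0.09 with median centring; the cause was not tested. In the fits without 1 pair, the array left alone in its dye order weighs as much as the others together. Over all genes limma called 3 without the dye term, 4 with processed signals and 1 each without background correction, with median centring and with the strict filter. Members in 1 direction on all arrays numbered 0 to 5 when a pair was left out, and 5 without pair 1. Fewer arrays make this easier by construction, and pairs 2, 4 and 5 correlated at 0.42 to 0.57 over all genes. The share of all genes on the same arrays is not given here, so these counts show nothing particular to the members. The B cell minus plasma cell difference was between -0.67 and -0.16 without 1 pair, -0.73 with processed signals, and -0.27 both with Jchain alone and without Cd79b and Ms4a1, which were chosen after seeing the data.

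With processed signals the ratios for pair 2 were -3.38 for Cd79b, -2.50 for Ms4a1 and -1.76 for Pou2af1. Median centring shifted the median of tested genes to -0.64, -0.12 and 0.38 for pairs 1, 2 and 4, where Jchain was then at 0.35, -1.24 and -0.93. No paired analysis was possible because a replicate block beyond the array would leave nothing to fit: each ratio is already the difference within a pair, so all fits are paired by array, and the numbers shared in the labels join expression to methylation arrays.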
